A study of Ovis aries with 24 samples.

Results

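RRAD encodes a small GTPase of the RGK family. It was read from the only probe set of a bovine Affymetrix GeneChip that carries the symbol RRAD (Entrez gene 505165 in the platform annotation), 1 of the 24016 that are not controls, in sheep skeletal muscle. The 24 arrays form 12 groups of 2. Supraspinatus (SS), a shoulder muscle, was taken at T12 (11 to 12 weeks of age) from lambs of genotype CN and from wild type NN lambs. A hind limb muscle coded SM, for which the labels give conflicting names, and semitendinosus (ST) came from NN lambs at T12. Longissimus dorsi (LD), a back muscle, was taken at T12 and at T0 (within 5 days of birth) from CN, CC, NC and NN lambs. CN is the paternal heterozygote for the callipyge mutation, NC the maternal heterozygote and CC the homozygote, and only CN carries the callipyge trait of enlarged muscle. All lambs came from a single flock of Dorset, Suffolk and Rambouillet crosses. By their labels the 2 arrays in each group are technical replicates. The protocol counts 8 male lambs for LD, 4 for each of a pair of genotypes, and does not say how many lambs a single array holds. A p-value therefore measures only the spread between group values, and the exact age in days of each birth group cannot be told apart from its genotype.

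RGK proteins bind the beta subunit of voltage-gated calcium channels and lower the calcium current. In striated muscle the current-carrying subunit of such a channel also senses voltage for contraction. RRAD was first described in human muscle, as a transcript raised in diabetes, and in mouse heart its phosphorylation by protein kinase A frees the channel from this brake. Binding to calmodulin, calmodulin-dependent kinase and 14-3-3 proteins has also been described.

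RRAD was chosen by its measured signal, which was low in LD of CN lambs at birth, so that difference, and whatever contains it, is described here with no test. The RRAD signal was far above the array medians of 47.4 to 59.7 on every array, with 348 as its lowest and 4890 as its highest value. The highest group value was 11.4 times the lowest. Levels are MAS5 signals, a linear brightness scaled by the authors to one level per array, and differences are in log2 signal. The technical SD of log2 RRAD signal within a group of 2 arrays, pooled over the 12 groups, was 0.178.

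**Figure D1:**
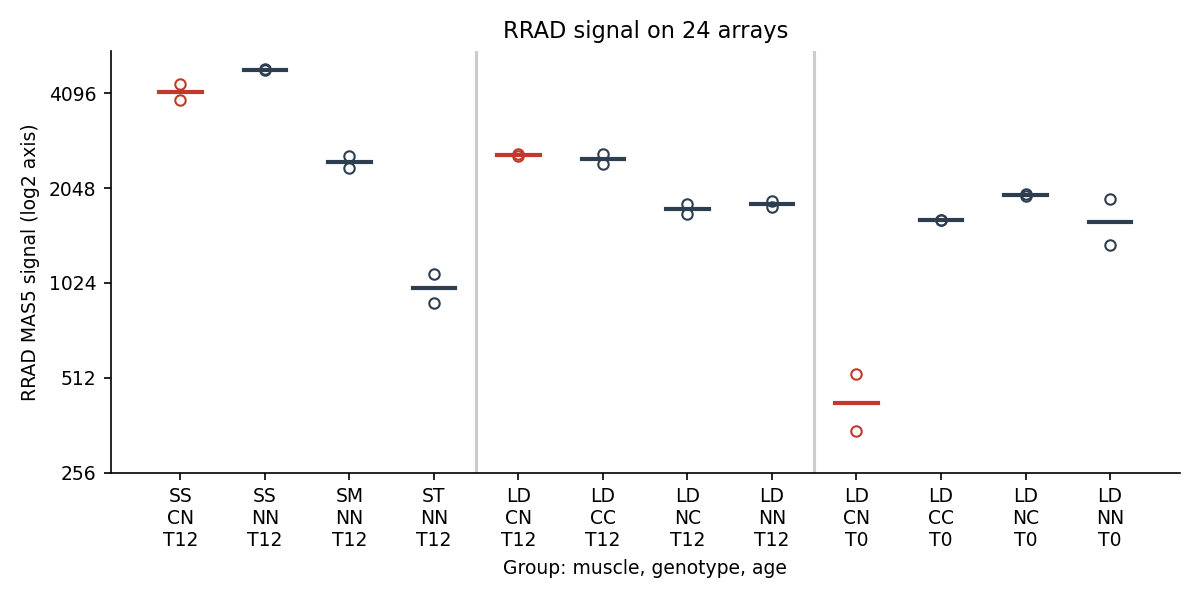
RRAD signal on each of the 24 arrays (circles, log2 axis) by muscle, genotype and age, with the geometric mean of each group as a bar and CN groups in red. Both SS groups lie above all others, and LD of CN lambs at birth lies lowest, at 348 and 525.8.

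The order of the 12 groups ran from SS to LD of newborn CN lambs. SS of NN lambs was highest (4866, the geometric mean of its arrays), followed by SS of CN lambs (4129). LD of CN lambs at T12 (2606), LD of CC lambs at T12 (2537) and SM of NN lambs (2471) came next, and the arrays of each overlapped those of its neighbour. Then came LD of NC lambs at T0 (1946), of NN lambs at T12 (1824) and of NC lambs at T12 (1760.3), of which only the last pair overlapped. LD of CC lambs (1625) and of NN lambs (1595) at T0 also overlapped. ST of NN lambs (984.0) and LD of CN lambs at T0 (427.8) stood below all of these, and neither overlapped with its neighbour in the order.

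At T12 RRAD in LD of CN lambs was at the upper end of the other genotypes. CN gave 2620.7 and 2590.5, against 2631 and 2447.3 in CC, 1698.4 and 1824.4 in NC, and 1869.1 and 1779.1 in NN. The CN arrays overlapped those of CC and lay above those of NC and NN. Against the 3 genotypes together CN differed by 0.37 ± 0.21 (SE, 1 CN value against 3), 1.29-fold, and did not pass (limma adjusted p = 0.623, 95% interval −0.09 to 0.83), in a comparison where 0.179% of all probe sets passed. Set against single genotypes the CN value was higher by 0.04 than CC, by 0.57 than NC and by 0.51 than NN. The difference from the 3 genotypes was 0.54 without the CC groups, where it did not pass either (adjusted p = 0.230). The CN arrays had median signals of 49.65 and 51.6, below all 6 of the other LD arrays at T12 (53.6 to 58.0), and with quantile normalization, which gives every array the same distribution, the RRAD difference was 0.32. The 3′ minus 5′ difference in log2 GAPDH signal, a sign of RNA quality, was −0.033 and 0.085 in CN and 0.0433 to 0.246 in the others. The summed signal of the 12 measured muscle fibre markers was 232188 to 262870 in CN against 274845 to 322679 in the other genotypes, and the slow fibre troponin TNNT1 fell by 0.97 (adjusted p = 0.0371). The slow myosin MYH7 had −0.89 on its brightest probe set (adjusted p = 0.0493) and 0.12 on the other. Sums of the fibroblast, adipocyte, immune and nerve marker lists were also below the others, and those of the endothelial, smooth muscle and haemoglobin lists overlapped. The part of these measures in the RRAD value was not tested.

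At T0 RRAD was low in CN. Its arrays gave 348 and 525.8, against 1627.5 and 1623.3 in CC, 1929.4 and 1962 in NC, and 1349.9 and 1885.6 in NN. Both CN arrays lay below all 6 of the others. The CN group value was 427.8 and that of the other genotypes 1715 (SD of the 3 log2 values 0.158), a difference of −2.00, or 4.01-fold lower in CN. It was −1.93 against CC, −2.19 against NC and −1.90 against NN. The 2 CN arrays differed from each other by 0.595 on the log2 scale, more than the arrays of any other group. Among 8128 probe sets with a mean signal of 100 or more, RRAD had the most negative of all differences between CN and the other genotypes at T0. CST6 came next at −1.95. As RRAD was chosen for this low value, its rank only describes the choice. Among all 15664 tested probe sets, dim ones included, 140 were lower.

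Array medians and some of the marker sums set CN apart at birth. The CN arrays had median signals of 48.1 and 47.4, below all 6 of the other birth arrays (50.1 to 52.9), and with quantile normalization the RRAD difference was −2.01. The GAPDH 3′ minus 5′ difference was 0.230 and 0.225 in CN, within the 0.131 to 0.307 of the others. The muscle was recognisable on these arrays, since all 12 measured fibre markers, among them ACTA1, CKM and MYH1, were above the lowest array median in CN. Their summed signal was lower, 198534 to 231814 in CN against 232342 to 269066 in the others. The summed signals of 9 endothelial markers (2681 to 2858 against 3007 to 3452), 7 smooth muscle and pericyte markers (3785 to 3939 against 4269 to 5030.2), 9 fibroblast and matrix markers (48038 to 52269.5 against 61557 to 73193) and 3 haemoglobin genes (293.1 to 329.6 against 382.7 to 567.4) were likewise below the others. TIE1, CLDN5, PDGFRB, CIDEC, CD4 and CD8A were under the lowest array median in CN. Sums of the immune, adipocyte and nerve, Schwann and satellite cell markers overlapped between the groups. The part of these measures in the RRAD value was not tested, and in bulk muscle fewer cells of a type and less RNA per cell cannot be told apart.

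From T0 to T12 the RRAD step in LD ran from −0.14 in NC to 2.61 in CN. Each step is 1 group value against 1, and differences between genotypes were not tested. In CN it was 2606 at T12 against 427.8 at T0, a step of 2.61 or 6.09-fold, which contains the described birth value and has no test. In CC the step was 0.64 (2537 at T12 against 1625 at T0), with both T12 arrays above both T0 arrays. NN had a step of 0.19 with overlapping arrays. The NC step was −0.14, and both T12 arrays of NC lay below its T0 arrays. Over CC, NC and NN together T12 was higher by 0.23 ± 0.15 (SE, 3 group values at each age) and did not pass (limma adjusted p = 0.362, interval −0.10 to 0.56). This test shares its T0 values with the described difference. Without the CC groups the value was 0.02.

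**Figure D2:**
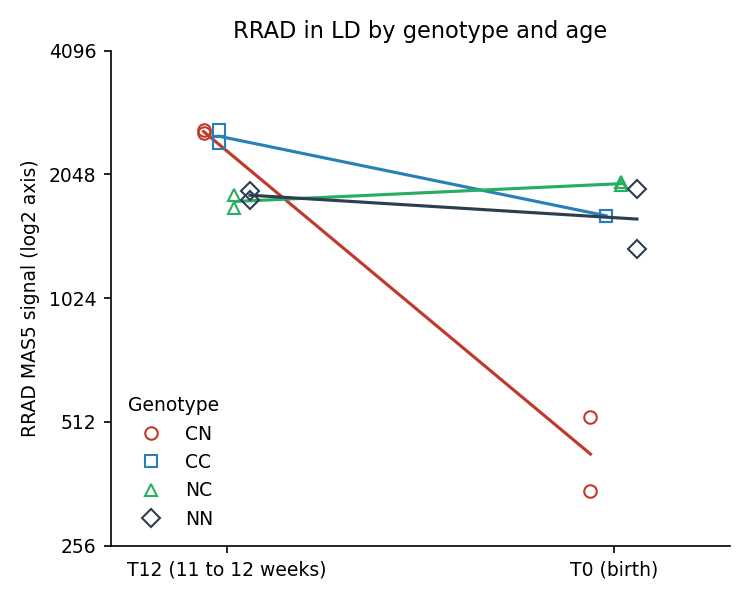
RRAD signal (log2 axis) in LD at T12 and T0 for each genotype. Symbols are single arrays and lines join the geometric means. CN has 2606 at T12 and 427.8 at T0, while the other genotypes stay between 1595 and 2537.

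Among the LD genotypes other than CN no RRAD difference passed. Over both ages CC exceeded NN by 0.25 ± 0.49 (SE, limma adjusted p = 0.988) and NC exceeded NN by 0.12 ± 0.49 (adjusted p = 0.995), on 2 group values each. In each comparison 0.0128% of probe sets passed. The intervals are wide, −0.84 to 1.34 and −0.97 to 1.21, and the fit also holds the CN groups, whose age step of 2.61 enters its spread. The NC difference was −0.0029 without LD NN T0 replicate 1.

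In the shoulder muscle RRAD did not pass between CN and NN lambs. SS of CN lambs gave 4392.4 and 3882.3, and SS of NN lambs 4890 and 4842.6, so both CN arrays lay below both NN arrays. The difference was −0.24 ± 0.26 (SE, 1 value against 1, limma adjusted p = 0.9999, interval −0.80 to 0.33). No probe set passed in this comparison (0 of 15664, 656 at an unadjusted p under 0.05). The SS difference between CN and NN minus the LD difference between CN and the other genotypes at T12 was −0.61 ± 0.33 and did not pass (adjusted p = 0.998, interval −1.34 to 0.12).

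The muscles differed in RRAD, and this was larger than the spread between genotypes for SS. At T12 SS of NN lambs had a group value of 4866, against 2012 in LD of CC, NC and NN. RRAD rose by 1.27 ± 0.21 in SS (SE, 1 value against 3, 2.42-fold, limma adjusted p = 0.00845), where 2.96% of all probe sets passed in either direction and 1.42% were higher. Both SS arrays lay above all 6 LD arrays, whose highest was 2631. Against LD of NN lambs alone SS was 2.67-fold higher. SS of NN lambs also exceeded SM and ST together, by 1.64 ± 0.22 (3.12-fold, adjusted p = 0.00707), a comparison in which 0.996% of probe sets passed. Both calls ended when the variance was fitted without an intensity trend (adjusted p = 0.145 and 0.166). SS of CN lambs was 0.66 ± 0.26 above LD of CN lambs, which did not pass (adjusted p = 0.222), where 2.97% of probe sets did.

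In neither hind limb muscle did the difference from LD pass. SM gave 2367.8 and 2578.6, inside the range of the LD arrays at T12 (1698.4 to 2631), and differed from LD by 0.30 ± 0.21 (SE, limma adjusted p = 0.919). ST gave 883.6 and 1095.9, below all 6 LD arrays, a difference of −1.03 ± 0.21 that did not pass over all probe sets (limma adjusted p = 0.134, interval −1.49 to −0.57). It passed without ST NN T12 replicate 2, at −1.19 (adjusted p = 0.0380). SM exceeded ST by 1.33 ± 0.26, 2.51-fold, which did not pass (adjusted p = 0.205). In these comparisons 0.0128% (SM against LD), 0.083% (ST against LD) and 0.00638% (SM against ST) of probe sets passed.

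**Figure D3:**
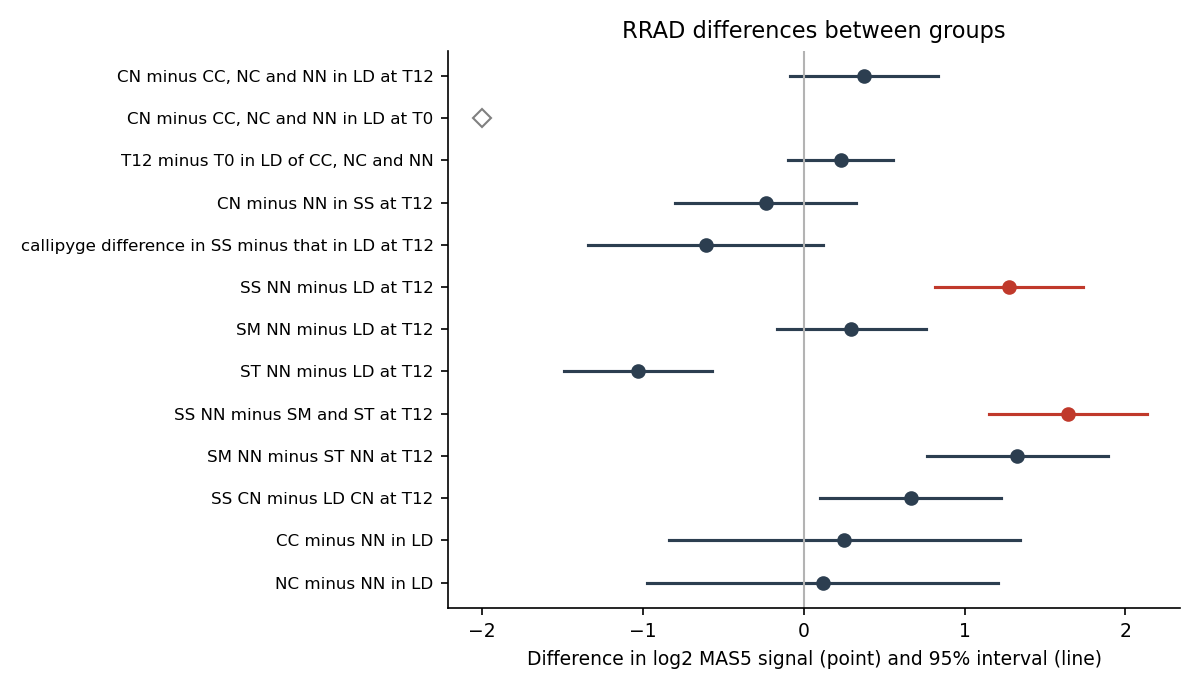
Differences in log2 RRAD signal for the 13 comparisons, the first-named group minus the second. Points are estimates, lines are unadjusted 95% intervals of the limma fit, red marks an adjusted p under 0.05, and the open grey diamond is the described birth difference of −2.00, which has no test. The 2 red points, at 1.27 and 1.64, are the comparisons of SS with the other muscles.

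Markers of other cells also differed between SS and LD. The summed signal of 5 adipocyte markers was 2717.5 to 2795.8 in SS of NN lambs against 551.7 to 975.7 in LD. The largest difference of the 5 was that of the lipase LPL, at 2.80 (limma adjusted p = 0.000143). Their median was 0.96 and the smallest 0.34, and 2 of the 5 passed. Adipocyte sums were above LD in SM (1300.4 to 1306) and in ST (1448 to 1506) too. Endothelial markers summed to 2730.0 to 2866 in SS and 3069 to 4229 in LD, and were below LD in ST too (2864 to 2974). Smooth muscle and pericyte markers summed to 4652 to 5203 in SS and 5520 to 7960 in LD. Haemoglobin genes gave 98.9 to 134.2 in SS and 144.9 to 262.9 in LD. Sums of the fibroblast, immune and nerve lists overlapped between SS of NN lambs and LD. GAPDH 3′ minus 5′ differences were 0.0244 and 0.0583 in SS and 0.0433 to 0.246 in LD. Fibre markers overlapped in their sum, while slow troponin T, TNNT1, was higher in SS by 0.68 (adjusted p = 0.0248) and fast troponin T, TNNT3, fell by 0.58 (adjusted p = 0.0249). These were the only calls among the 12 fibre markers, of which 5 were positive and 7 negative. The slow myosin MYH7 did not pass, and its less bright probe set gave −0.67 (limma adjusted p = 0.109). The part of fibre type and of other cells in the RRAD difference was not tested.

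The other RGK genes gave little to set beside RRAD. GEM, which also restrains calcium channels, had group signals of 53.9 to 125.5, close to the array medians. It differed by −0.10 in CN at T12, by −0.21 in CN at T0 and by −0.65 from T0 to T12 in the other genotypes, and none passed. In SS of NN lambs against LD it had 0.80 (adjusted p = 0.284). REM1 lay between 4.39 and 60.3, where a change cannot be read. In CN against the other genotypes at T0 0.172% of all probe sets passed. Between the ages 11.7% did, 5.89% higher and 5.79% lower at T12.

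The targets of RGK proteins, the calcium channel subunits, were read gene by gene from a list of 14. Of these 10 are on the array and 7 passed the filter on dim probe sets. The listed current-carrying subunits, CACNA1S, CACNA1C, CACNA1D and CACNA1H, were not among the 7, so nothing can be said of them. None of the 7 passed in CN at T12 (median 0.21, against −0.06 over all tested probe sets) or at T0 (median −0.41, against −0.02). Of all probe sets 0.179% passed at T12 and 0.172% at T0. CACNB1, the beta subunit of the skeletal muscle channel, had 2892 in CN against 2232 in the other genotypes at T12 and 3587 against 4096 at T0, differences of 0.37 and −0.19. Its less bright probe sets gave −0.02 and 0.20 at T12 and −0.57 and −0.11 at T0. STAC3, an adaptor that brings the channel to the surface, gave −0.05 and −0.41. The values of CACNA2D1, which eases channel traffic, were 0.16 and 0.11, and those of the gamma subunit CACNG6 were 0.21 and −0.45. CACNB2, CACNB3 and CACNB4, at −0.87, 0.47 and 1.90 at T12 and −0.51, 0.49 and −1.06 at T0, were dim, with group signals from 9.80 to 67.6.

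With age 2 of the 7 channel genes fell in CC, NC and NN, where RRAD did not pass and 5.79% of all probe sets were lower. CACNB1 was lower at T12 by 0.88 ± 0.10 (limma adjusted p = 0.000731) and CACNA2D1 by 0.67 ± 0.15 (adjusted p = 0.0178, with −0.12 on a dim second probe set). A second CACNB1 probe set fell as well (−0.94, adjusted p = 0.00644), and the remaining one gave −0.08. In SS of NN lambs against LD, 1 of the 7 rose, against 1.42% of all probe sets. STAC3 was higher by 3.60 (adjusted p = 9.02e-06), and of its 3 other probe sets 2 rose by 3.91 and 3.25 while the dimmest gave 0.29. CACNA2D1 and CACNG6 gave 0.80 and 0.96, CACNB2, CACNB3 and CACNB4 gave 0.68, 0.57 and 0.45, and CACNB1 gave −0.17, none of which passed.

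Genes of excitation-contraction coupling and calcium storage, 11 measured of 22, did not pass in CN at either age. The share over all probe sets was 0.179% at T12 and 0.172% at T0. At T12 their median was 0.05, with PLN, an inhibitor of the calcium pump, at −0.67 and the slow pump ATP2A2 at −0.53. At T0 all 11 were negative with a median of −0.30, against −0.02 over all tested probe sets. This was not particular to the list, as 11 of the 12 fibre markers were negative and 1 positive, with a median of −0.22. The store-operated channel ORAI1 had −0.81 and the fast pump ATP2A1 −0.39. From T0 to T12 in the other genotypes 3 of the 11 fell, against 5.79% of all probe sets. These were ORAI1 by 0.97, the channel-binding FKBP1A by 0.89 and the calcium-binding HRC by 0.65 (adjusted p = 0.00338, 0.00126 and 0.00661). PLN rose in SS over LD by 2.14 (adjusted p = 0.00369), as the 1 call of this list there and named after its value was seen. In that comparison 1.42% of all probe sets were higher. The brightest ATP2A2 probe set passed in neither comparison (−0.22 with age and 0.61 in SS), while its 3 others passed in both, at −0.95, −0.43 and −1.02 with age and 1.67, 0.98 and 2.80 in SS.

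**Figure D4:**
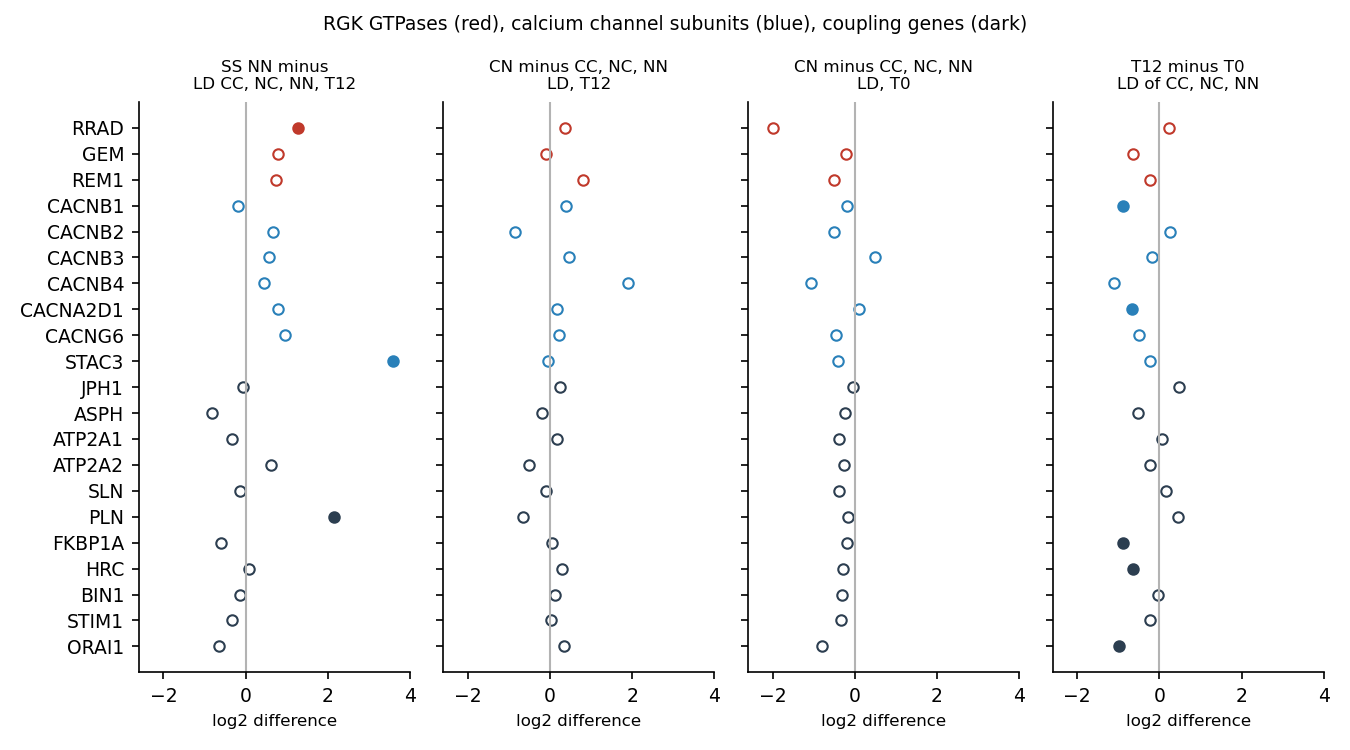
Differences in log2 signal of RGK genes (red), calcium channel subunits (blue) and coupling genes (dark) in 4 comparisons. Filled points have an adjusted p under 0.05, and RRAD at T0 is open because it was not tested. RRAD stands at 1.27 in SS against LD and at −2.00 in CN at T0.

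Proteins described to bind RRAD were also not called in CN, 0 of 11 measured at each age, with medians of 0.03 at T12 and −0.14 at T0. Of all probe sets only 0.179% passed at T12 and 0.172% at T0, so 0 calls among 11 say little. The kinase ROCK2 had 1.05 and 0.74, against −0.06 and −0.17 on its other probe set. CALM3, a calmodulin gene, had 0.43 at T12, and the 14-3-3 protein YWHAG had 0.60 at T0. With age in the other genotypes the 14-3-3 protein YWHAQ fell by 0.54 (adjusted p = 0.00857). CALM3 was higher by 0.59 on its brightest probe set (adjusted p = 0.00598) and by 0.17 on the other (adjusted p = 0.379). Of the cAMP and protein kinase A genes 5 were measured and 0 passed in CN. ADCY2 and PRKAR2A gave 0.55 and 0.54 at T12, and PRKAR1A and PRKACA 0.23 and −0.23 at T0. With age the adenylate cyclase ADCY2 rose by 0.57 and the regulatory subunit PRKAR1A fell by 0.51 (adjusted p = 0.0102 and 0.0226).

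RRAD is also known from insulin-resistant muscle and as a p53 target. Of 7 insulin and glucose uptake genes none passed in the LD comparisons. Over all probe sets 0.179% passed in CN at T12, 0.172% at T0 and 11.7% between the ages. PPP1R3C, which targets a phosphatase to glycogen, had −0.73 at both ages in CN, the insulin receptor INSR −0.54 at T12, and the glucose transporter SLC2A4 2.23 at T0, where its other genotypes had a signal of only 29.5. From T0 to T12 SLC2A4 had 0.53 and AKT1 −0.43. Of 7 p53 targets 0 passed in CN. TP53INP1 and GADD45A had −0.96 and −0.69 at T12, and GADD45A and CDKN1A 1.36 and 0.91 at T0. Of the 7 at T0, 5 were positive and 2 negative, the lowest at −0.51. With age the cell cycle inhibitor CDKN1A fell by 2.08 (adjusted p = 0.0013) and TP53INP1 had 1.24 (adjusted p = 0.00996), against 0.58 on a dimmer probe set (adjusted p = 0.306).

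Immediate early genes, 14 measured, did not pass in CN, where 0.179% of all probe sets passed at T12 and 0.172% at T0. EGR1 and NR4A1 had −0.94 and 0.86 at T12. At T0 MYC had 1.75 ± 0.31 (adjusted p = 0.0502) and the stress factor ATF3 −1.59. With age 5 rose and 1 fell, where 5.89% of all probe sets were higher and 5.79% lower. ZFP36, KLF4, CCN1 and JUN were higher by 1.47, 1.65, 0.995 and 0.94, as those of smallest p. Genes that respond to denervation and regeneration, 9 measured, gave 0 calls in CN. NCAM1 and MYH8 had −1.17 and −0.66 at T12, and MYH8 and the acetylcholine receptor subunit CHRNE −1.08 and −0.99 at T0. With age 4 fell, the embryonic and neonatal myosins MYH3 (−2.98) and MYH8 (−2.13), the receptor subunit CHRND (−2.29) and the stretch-responsive ANKRD1 (−1.22).

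The genes whose pattern was most like that of RRAD were found by Pearson correlation of log2 group values over the 12 groups, among 4724 symbols with a mean signal of 100 or more. The values are descriptions, since the groups share arrays, animals and scaling. PINK1, a kinase that marks damaged mitochondria, had r = 0.92, the demethylase FTO 0.91 and the sorting protein VPS37A 0.91. USP53 had 0.88, CAMK2G, a calmodulin-dependent kinase, 0.87 and the slow myosin light chain MYL6B 0.86. ENSA had 0.85, and the ubiquitin ligase ARIH1, the nucleotidase NT5C3A and ZMYND8 had 0.84 each. Over all 4724 symbols the 1st and 99th percentiles of r were −0.75 and 0.75. The choice of genes leans on LD of CN lambs at T0, the value for which RRAD was chosen. Without that group these 10 values lay between 0.60 and 0.89. Of the 10 genes 4 (VPS37A, USP53, MYL6B and PINK1) were among the 10 most alike over the other 11 groups. CAMK2G, NT5C3A and ZMYND8 fell to ranks 118, 159 and 245.

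The profiles were alike in shape and differed in size. PINK1 had 129.5 in LD of CN lambs at T0 against 193.1 in the other genotypes, and 320.2 in SS of NN lambs. The SD over the 12 groups was 0.92 for RRAD and 0.34 for PINK1, and only MYL6B, at 1.11, varied more than RRAD. The most opposite patterns were those of UBLCP1, a phosphatase of the proteasome, at −0.91, the proteasome subunit PSMB6 at −0.88, NUDCD1 at −0.87, the tRNA methyltransferase TRMT1 at −0.86 and MFSD5 at −0.84. None of these 15 genes passed in CN against the other genotypes at T0.

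**Figure D5:**
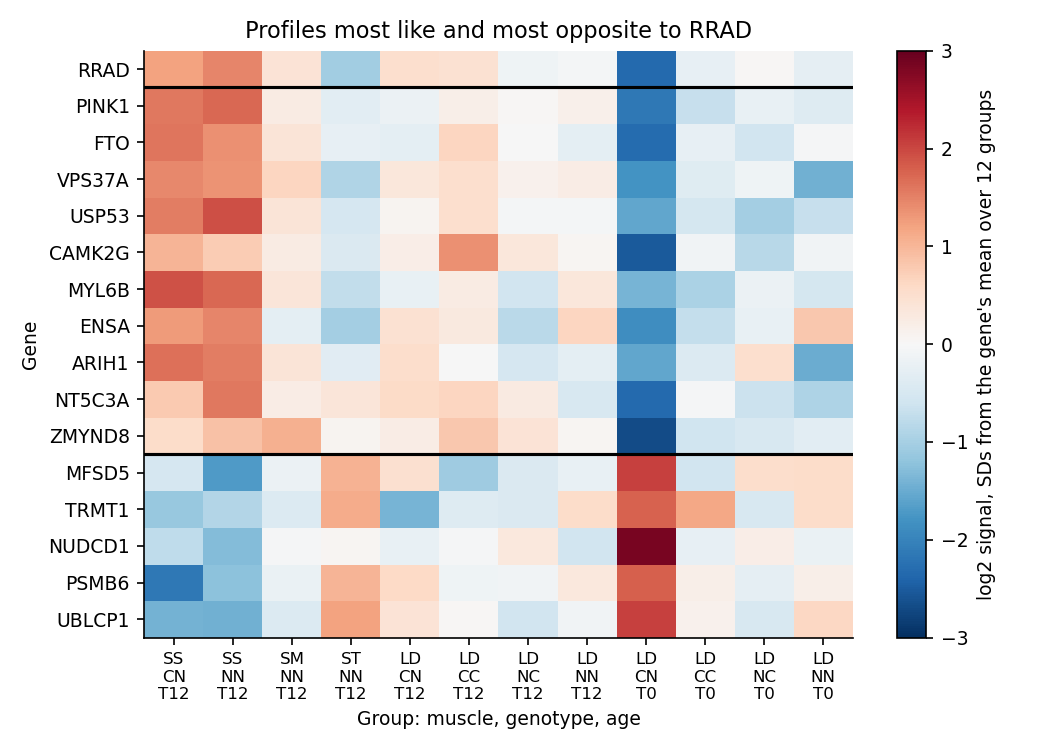
Log2 signal of RRAD, the 10 genes most like it and the 5 most opposite, as SDs from each gene's mean over the 12 groups. RRAD and the 10 genes are lowest in LD of CN lambs at T0, where the 5 opposite genes are highest. The genes were picked by correlation over groups that include this one, so this match follows in part from the choice.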

How the data were processed

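The authors deposited MAS5 signal intensity per probe set, per the submitters' processing notes (version not given in the sources used here). The trimmed mean (0.02 at each end) of every array lay between 200.08 and 200.09. The 112 controls among 24128 probe sets were dropped. A probe set entered the tests if at least 1 group value exceeded the median of all group values (a signal of 49.7), which kept 15664. Signals at or below 1 were set to 1, log2 was taken, and the 2 technical arrays of a group were averaged. How precise a value is depends on the number of arrays.

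Two-sided tests came from limma 3.58.1 (R 4.3.3), with an intensity trend in eBayes and Benjamini-Hochberg adjustment over all tested probe sets at 0.05. The 12 values formed 8 cells, the 3 genotypes other than CN sharing 1 LD cell per age. This leaves 4 residual degrees of freedom (prior 6.88), and a cell of 1 value takes its spread from them. For CC and NC against NN, genotype and age were fitted to the 8 LD groups. Symbols came from the platform annotation of 2016, with the brightest probe set per gene. RRAD also has 1 entry in the RefSeq sheep gene table. No genome or sequence was used here.

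RRAD and the lists were chosen with earlier results of these data known. Genes named are all measured RGK and channel genes, list members called in LD (at most 4 by smallest p, otherwise the 2 largest differences), and the 10 most and 5 least correlated with RRAD. Genes named for SS and among markers were chosen after their values were seen. Alternatives were quantile normalization, a floor of 32, a pseudocount of 16, no filter, no intensity trend, 24 arrays with the group as random block, the replicate number as block, leaving out a genotype, and leaving out each array.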

Additional observations from a re-analysis of the deposited data

Results flagged for a closer look

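The RRAD difference between CN and NN groups changed sign between muscles and ages. The log2 difference of CN minus NN was 0.51 in LD at T12, −1.90 in LD at T0 and −0.24 in SS at T12. The CN and NN arrays did not overlap, but they are technical replicates, so each difference is 1 group value against 1. The SS difference was smaller than its SE of 0.26 and did not pass. The difference between the ages in LD contains the described birth value and was not tested. That between SS and LD at T12, taken against CC, NC and NN, did not pass (−0.61, limma adjusted p = 0.998).

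The step from T0 to T12 in LD was 0.64 in CC and 2.61 in CN, with both T12 arrays above both T0 arrays, while in NC it was −0.14 with both T12 arrays below. These differences between genotypes were not tested.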

How the results depend on the processing

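The RRAD difference between CN and the other LD genotypes at T0 was −2.30 to −1.71 over the 24 fits that left out an array, with −1.71 without LD CN T0 replicate 1 and −2.30 without LD CN T0 replicate 2, and −2.06 to −1.91 under the 10 other alternatives. The SS calls held in all 24 such fits, at 1.26 to 1.29 against LD and 1.56 to 1.72 against SM and ST, and ended without an intensity trend (1.27 and 1.64, adjusted p = 0.145 and 0.166); the cause was not tested. ST against LD was −1.19 to −0.88 and passed without ST NN T12 replicate 2. With 24 arrays and the group as random block, ST against LD (−1.03, adjusted p = 0.00188) and SM against ST (1.33, adjusted p = 0.00299) passed, as technical arrays then count as samples.

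The same 2 comparisons passed with the replicate block (−1.03 and 1.33, adjusted p = 0.00202 and 0.00375). Replicate numbers did not pair the arrays, since deviations correlated between −0.070 and 0.101 over 66 pairs of groups. NC against NN was −0.0029 to 0.24 over left-out arrays. The other RRAD comparisons kept their direction and stayed short of the threshold under every alternative run.

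Counts of called probe sets moved more. For CN in LD at T12 and T0 and for T12 against T0 they were 28, 27 and 1830. They were 11, 7 and 1801 with quantile normalization, 0, 14 and 1821 with the floor of 32, 19, 76 and 1993 with the pseudocount, and 11, 24 and 1667 without the filter. Without the trend limma gave 0, 0 and 227 (1417, 1532 and 3716 at an unadjusted p under 0.05, and 1410 at T12 with the floor). They were 269, 580 and 2868 with the random block, 246, 560 and 2848 with the replicate block, and 1 to 422, 3 to 270 and 1220 to 1906 over left-out arrays.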
